A study of Mus musculus with 16 samples.

Results

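Genes of the respiratory chain and of ATP synthase were followed in 2 kinds of CD4 T cell sorted from mouse visceral adipose tissue (VAT, the fat around the abdominal organs). Regulatory T cells (Treg) express the transcription factor Foxp3 and hold immune responses in check, and conventional T cells (Tconv) do not. Members were all genes of the deposited table whose symbol starts with Nduf, Uqcr, Atp5 or Cox plus a digit, or is Sdha, Sdhb, Sdhc, Sdhd, Cyc1 or Cycs. This gave 100 of 19540 genes: 37 for complex I and 8 assembly factors of it, 4 for complex II, 9 for complex III, 1 for cytochrome c, 16 for complex IV and 9 assembly factors of it, 15 for ATP synthase, and Atp5s, a factor associated with it. The mice were C57BL/6JRcc and 12 weeks old. Hpgd, which encodes the prostaglandin-inactivating enzyme 15-hydroxyprostaglandin dehydrogenase, was deleted in Treg (KO) or not (wild type, WT). Treg were sequenced in 3 WT and 4 KO libraries and Tconv in 4 WT and 5 KO libraries, and 5 deleted and 4 WT animals are stated. The line label gives Hpgd fl and Foxp3-YFP-Cre, a Cre recombinase made under control of Foxp3, with Treg-specific deletion, for all 16 samples. Genotype was therefore taken from the titles, and whether WT mice carried Cre is not stated. Libraries are not tied to animals in the labels, so p-values measure the spread between libraries, which may be technical.

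The respiratory chain sits in the inner mitochondrial membrane. Complex I takes electrons from NADH and complex II takes them from succinate, and both pass them to ubiquinone. Complex III hands the electrons on to cytochrome c, and complex IV passes them to oxygen. Complexes I, III and IV pump protons, and ATP synthase makes ATP as the protons flow back. Most subunits are encoded in the nucleus, and 13 core subunits are encoded in mitochondrial DNA and are not members here. Treg are known for relying on mitochondrial respiration more than activated Tconv do.

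Of the 98 members that could be tested, 5 passed the test in a comparison of Treg with Tconv. Their promoters are shown because the results turn on these genes. Each sequence is the 250 bases before the start site of the gene in RefSeq (GRCm38.p6), 5′ to 3′ on the strand of the gene. Capitals mark a match to a motif that was searched, and a sequence wholly in lower case holds none. The windows are chr6:11907451-11907700 (minus strand) for Ndufa4, chr2:73911327-73911576 (minus) for Atp5g3, chr10:80406822-80407071 (minus) for Uqcr11, chr4:140961021-140961270 (plus) for Sdhb and chr10:80142025-80142274 (plus) for Atp5d, the first of its 2 start sites.
Ndufa4: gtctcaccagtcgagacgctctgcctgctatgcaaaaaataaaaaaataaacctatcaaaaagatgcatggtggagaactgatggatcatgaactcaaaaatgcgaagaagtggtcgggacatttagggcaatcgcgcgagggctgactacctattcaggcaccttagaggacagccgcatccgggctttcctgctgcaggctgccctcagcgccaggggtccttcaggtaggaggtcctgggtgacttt
Atp5g3: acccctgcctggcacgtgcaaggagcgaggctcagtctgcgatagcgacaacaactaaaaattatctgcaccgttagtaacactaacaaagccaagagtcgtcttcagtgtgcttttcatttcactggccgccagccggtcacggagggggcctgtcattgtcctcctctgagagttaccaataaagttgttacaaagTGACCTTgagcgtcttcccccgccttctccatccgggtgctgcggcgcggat
Uqcr11: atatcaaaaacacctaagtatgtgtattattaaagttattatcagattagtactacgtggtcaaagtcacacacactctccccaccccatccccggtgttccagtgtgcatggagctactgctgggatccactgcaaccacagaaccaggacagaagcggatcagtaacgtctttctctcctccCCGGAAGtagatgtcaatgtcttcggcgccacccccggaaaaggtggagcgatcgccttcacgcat
Sdhb: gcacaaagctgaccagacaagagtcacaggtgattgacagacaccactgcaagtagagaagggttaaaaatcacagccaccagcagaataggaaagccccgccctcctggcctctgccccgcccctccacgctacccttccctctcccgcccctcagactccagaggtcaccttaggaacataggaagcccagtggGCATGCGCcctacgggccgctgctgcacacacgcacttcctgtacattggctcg
Atp5d: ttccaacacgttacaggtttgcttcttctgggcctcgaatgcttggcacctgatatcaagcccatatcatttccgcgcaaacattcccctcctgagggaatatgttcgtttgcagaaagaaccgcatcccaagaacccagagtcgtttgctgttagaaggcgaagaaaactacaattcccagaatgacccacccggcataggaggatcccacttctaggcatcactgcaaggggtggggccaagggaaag
Letters of 4 motifs were searched on both strands: GCATGCGC for the core of nuclear respiratory factor 1 (NRF1), CCGGAAG for ETS factors such as GABP, AAGATGG for YY1 and AAGGTCA for estrogen-related receptors (ERR). No window shown held more than 1 match, so none overlap. The Sdhb window held the NRF1 core, with its first base 54 bases before the start. The Uqcr11 window held the ETS letters, 66 bases before the start, and the Atp5g3 window held the ERR letters, 52 bases before it. The windows of Ndufa4 and Atp5d held none of the 4. Among the 86 promoters listed for 80 members, 11.6% held the NRF1 core, against 2.26% of all 32851 promoters of the same length. The ETS letters were in 20.9% of member promoters and 6.91% of all, and either of these motifs was in 30.2% and 8.85%. The YY1 letters were in 2.33% of member promoters and 4.49% of all, and the ERR letters in 5.81% and 4.08%. Median GC content was 57.6% for member promoters and 52.4% for all, and its part in these shares was not tested. A match to letters is a description and does not show binding.

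A value below is the read count of a gene over the library's size factor, plus 1, so a gene without reads is listed at 1. Libraries held 3.39 to 9.26 M reads, apart from Tconv KO 3 with 56.7 M, and 3 reads were worth 1.38 to 7.09. Hpgd, the targeted gene, stood at 73.1 and 56.0 in Treg WT 1 and Treg WT 2, at 4.31 in the library labelled Treg WT 3, and at 1 to 3.41 in the Treg KO libraries. The library labelled Treg WT 3 thus goes against its label on this gene. Foxp3 stood at 292 to 616 in WT Treg and 279 to 546 in KO Treg, against 1 to 39.3 and 1 to 4.99 in WT and KO Tconv. Treg WT 2 stood apart, at −116 on the second principal component of the log2 values against −31.5 to 78.6 in the other 15 libraries. Without it, 1 member (Ndufa4) passed between WT Treg and WT Tconv in place of 2, and 5 in place of 4 passed in KO. Summed markers of other cells stood out in Tconv WT 1 (neutrophils, 15000, against at most 198 in the other groups) and Tconv WT 3 (red cells and platelets, 160000, against at most 1330 in the other groups). Markers of type 2 innate lymphoid cells (6 of 6 with reads) summed to 3050 to 19500 in WT Treg and 11300 to 17800 in KO Treg, against 2400 to 10000 and 3760 to 9810 in WT and KO Tconv. Rora had the most reads of the 6 in every library. Areg had 966 to 5334 reads in Treg and 31 to 490 in Tconv other than Tconv KO 3 (7028). Il5 was highest in Tconv WT 1, Tconv WT 3 and Tconv KO 3, at 579, 422 and 7412 reads. It had 0 to 175 reads in Treg and 0 to 66 in the other Tconv libraries. Arg1 had 855 reads in Tconv WT 3 and 2249 in Tconv KO 3, against 0 to 51 elsewhere. Reads given here are not scaled for depth. In Tconv KO 3 a read was worth 0.127, against 0.779 to 2.03 in the other libraries. Its reads alone therefore do not place it above a shallower library. Adipocyte markers (8 of 8) summed to 44.7 to 106 and 42.2 to 159 in WT and KO Treg, against 9.01 to 28.4 and 13.2 to 34.7 in WT and KO Tconv. Markers of CD8 T and NK cells (5 of 5) summed to 64.0 to 551 in WT Treg, highest in Treg WT 2, and to 302 to 793 in WT Tconv. They summed to 83.2 to 314 in KO Treg, below the 490 to 1450 of KO Tconv in every library. Of the 5, Prf1 had 6 to 181 reads in KO Treg and 236 to 1609 in KO Tconv. The reads of Cd8a, Cd8b1, Klrb1c and Ncr1 overlapped between these groups. Cd8b1, for instance, had 3 to 128 reads in KO Treg and 6 to 1094 in KO Tconv, and Ncr1 had 0 to 4 and 0. The part of these cells in the comparisons of Treg with Tconv was not tested. In 50 members an exon overlaps another gene or another gene has a near-identical transcript, so some of their reads may belong elsewhere.

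Members were well expressed and varied little within groups. Their median level was 656 against 142 for all 14319 genes tested, and their median within-group SD was 0.35 on the log2 scale against 0.77. Per kilobase of transcript (kb), nuclear subunits ran highest for ATP synthase (median 1560 normalised reads per kb), complex IV (1480) and complex III (1340). Complex II (621 per kb) and complex I (598 per kb) were lower, and the assembly factors lower again, at 143 per kb for complex IV and 62.9 per kb for complex I. Uqcrh, the hinge protein of complex III, was the most abundant member, at 4297 per kb. Cox4i1, a nuclear subunit of complex IV, followed at 4037 per kb, and Cox6a1, another complex IV subunit, at 3700 per kb. These 3 exceeded the catalytic beta subunit of ATP synthase, Atp5b, at 2784 per kb. Atp5h, subunit d of the ATP synthase peripheral stalk, stood at 2478 per kb, while Atp5g2, a copy of subunit c, was lowest in that complex at 381 per kb. In complex I the accessory subunits Ndufa2 (2668 per kb) and Ndufa1 (2364 per kb) led, and Ndufc1 was lowest at 110 per kb. In complex III the small accessory subunit Uqcr11 came after Uqcrh at 2112 per kb, and the core protein Uqcrc2 was lowest at 373 per kb. In complex II the iron-sulfur subunit Sdhb led at 1275 per kb, ahead of the flavoprotein Sdha at 738 per kb, and the membrane anchor Sdhc was lowest at 174 per kb. Subunits of 1 complex thus spanned 7.3-fold in ATP synthase, 7.32-fold in complex II, 11.5-fold in complex III and 24.3-fold in complex I. Complex IV ran widest, from Cox4i1 down to 4.66 per kb for its alternative copy Cox4i2, which had reads in 7 of 16 libraries, so no fold is given. Among assembly factors, the copper chaperone Cox17 reached 1472 per kb and Cox14 866 per kb, while Cox15, an enzyme of haem A synthesis, stood at 20.6 per kb. Ndufaf8 (379 per kb) and Ndufaf2 (118 per kb) led the complex I assembly factors, and Ndufaf6 was lowest at 34.7 per kb. Cycs, cytochrome c, stood at 101 per kb of a transcript of 3.12 kb, and 4 copies at least 95% identical to it over 200 bases may share its reads. The 13 mitochondrially encoded genes had a median of 12500 per kb, led by COX1 at 32305 per kb. Exons of Cox4i1, Ndufa2, Uqcrc2, Cox15, Cox17 and Ndufaf2 overlap other genes, and Atp5h and Atp5g2 have near-identical transcripts elsewhere, so these levels are uncertain. Levels per kb depend on the transcript taken for each gene, so the order within a complex is a description.

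**Figure D1:**
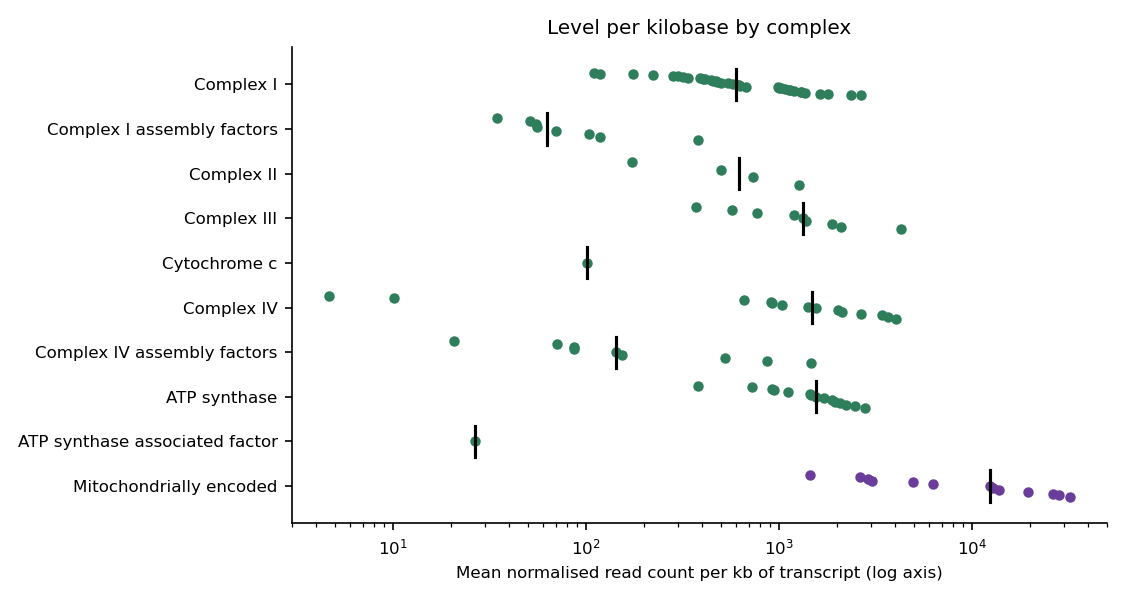
Mean normalised read count per kb of transcript (horizontal log axis), taken over the 4 group means, for each tested member with a known transcript length and for the mitochondrially encoded subunits, arranged by complex on the vertical axis, with a bar at each median. The medians of assembly factors (62.9 and 143 per kb) lie to the left of those of complexes I to IV and ATP synthase (598 to 1560 per kb). The median of the mitochondrially encoded genes (12500 per kb) lies to the right. Single points overlap: the assembly factor Cox17 (1470 per kb) and the mitochondrially encoded ND3 (1460 per kb) lie among the nuclear subunits.

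Between Treg and Tconv of WT mice, 2 members were lower in Treg and 0 higher. They were Ndufa4, a small subunit of complex IV that was long assigned to complex I, and Atp5g3, a copy of the membrane ring subunit c of ATP synthase. The test was limma on log2 values with Benjamini-Hochberg adjustment over 14319 genes, with 0.05 as the threshold on the adjusted p. The 2 of 98 members compare with 4.18% of all genes (2.20% higher and 1.98% lower in Treg). In all, 43 members had a higher fitted mean in Treg, against 49.7% of all genes, with a median log2 difference of −0.04 against −0.00. At an unadjusted p under 0.05 there were 6 members (Atp5b, Atp5g3, Atp5h, Cox14, Ndufa4 and Uqcrfs1), against 16.3% of all genes. The groups were apart in every library for 8 members, against 12.0%. The 95% interval of the log2 difference lay within −1 to 1 for 67 members, against 19.4% of all genes.

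In KO mice 4 members passed between Treg and Tconv, 3 higher and 1 lower in Treg, against 6.81% of all genes (4.16% higher and 2.65% lower). Ndufa4 was again the lower member. The higher members were Uqcr11 of complex III, Sdhb of complex II, and Atp5d, the delta subunit of the ATP synthase central stalk. In all, 55 members had a higher fitted mean in Treg, against 52.3% of all genes, with a median log2 difference of 0.04 for members and 0.04 for all genes. That count depended on scaling: it was 47 with quantile scaling, where 1 member passed higher (Uqcr11) and 1 lower (Ndufa4), and 35 in a voom fit on the reads. All genes moved the same way, from 7488 of 14319 higher in Treg to 6783 with quantile scaling and 6326 with voom. At an unadjusted p under 0.05 there were 13 members, against 18.7% of all genes, and 7 members had groups apart in every library, against 10.7%. The interval lay within −1 to 1 for 72 members, against 22.9% of all genes. The Treg libraries of the 2 genotypes are different samples, but each comparison shares its groups with the deletion comparisons below.

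Ndufa4 (chromosome 6, 11900292 to 11907497, minus strand; positions are from GENCODE M21 on mm10) stood at 226, 605 and 346 in WT Treg and 342, 319, 385 and 345 in KO Treg. It stood at 798, 683, 703 and 887 in WT Tconv and 782, 670, 625, 846 and 859 in KO Tconv. Each of the 7 Treg libraries lay below each of the 9 Tconv libraries, although Treg WT 2 came close to the lowest Tconv library. Means were 392 ± 194 in WT Treg, 348 ± 27.3 in KO Treg, 768 ± 93.9 in WT Tconv and 756 ± 105 in KO Tconv (SD, n = 3, 4, 4 and 5). The log2 difference between Treg and Tconv was −1.08 in WT (SE 0.28, limma adjusted p = 0.0295) and −1.11 in KO (SE 0.24, limma adjusted p = 0.00669). In KO it passed in all 24 other settings tried, with adjusted p from 0.00133 to 0.0297. In WT it was lost in 8 of the 24, including on leaving out any of Treg WT 1 (limma adjusted p = 0.156), Tconv WT 1 (0.0632), Tconv WT 4 (0.0806) and the library labelled Treg WT 3 (0.0998). The WT difference without Treg WT 1 was −0.74. Further losses in WT came with only the compared groups in the fit (0.135), with voom (0.057) and with Tconv KO 3, Tconv WT 3 and Tconv WT 1 all left out (0.0959).

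Atp5g3 (chromosome 2, 73908447 to 73911326, minus strand) stood at 582, 587 and 622 in WT Treg and 706, 797, 794 and 676 in KO Treg. It stood at 1064, 789, 1177 and 1113 in WT Tconv and 765, 1010, 894, 838 and 652 in KO Tconv. The 3 WT Treg libraries were the lowest of all 16, while KO Treg overlapped KO Tconv. The log2 difference was −0.78 in WT (SE 0.21, limma adjusted p = 0.0387) and −0.15 in KO (limma adjusted p = 0.752). The difference between those 2 was 0.63 (interval 0.04 to 1.21) and did not pass (limma adjusted p = 0.928). The WT call was lost in 12 of 24 other settings, with adjusted p up to 0.213. Among these were leaving out any of Treg WT 1 (limma adjusted p = 0.0938), Treg WT 2 (0.0775), Tconv WT 1 (0.0794), Tconv WT 3 (0.0921), Tconv WT 4 (0.093), Tconv KO 1 (0.0511), Tconv KO 4 (0.0512) and the library labelled Treg WT 3 (0.0917). Tconv WT 1 and Tconv WT 3 are the libraries with the neutrophil and red cell transcripts, and without both and Tconv KO 3 the difference was −0.65 (limma adjusted p = 0.213). These 3 libraries, of which Tconv KO 3 is the deepest, also had the most Il5 reads in Tconv (579, 422 and 7412, against 0 to 66 in the others). The same held for Il1rl1, from the list of Treg markers, at 1514, 1734 and 20097 reads against 12 to 237 in the other Tconv libraries. Il2ra of that list went the same way, at 568, 723 and 10245 reads against 14 to 86. Foxp3 did not, at 19, 0 and 7 reads against 0 to 34.

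Uqcr11 (chromosome 10, 80402997 to 80406830, minus strand) stood at 1243, 1353, 1441 and 1600 in KO Treg and 762, 610, 544, 960 and 624 in KO Tconv. It stood at 1222, 650 and 786 in WT Treg and 804, 586, 618 and 1062 in WT Tconv. The 4 KO Treg libraries lay above the other 12, though Treg WT 1 was close to the lowest of them. The log2 difference between Treg and Tconv was 1.03 in KO (SE 0.23, limma adjusted p = 0.00808) and 0.20 in WT (limma adjusted p = 0.793). In KO it passed in all 24 other settings, with adjusted p from 0.00368 to 0.035. The difference between the genotypes was 0.84 (SE 0.35, interval 0.10 to 1.57) and did not pass (limma adjusted p = 0.928).

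Sdhb (chromosome 4, 140961203 to 140979193, plus strand), whose protein carries electrons over iron-sulfur clusters, stood at 1686, 1731, 1934 and 2044 in KO Treg and 1102, 1207, 969, 1425 and 1234 in KO Tconv. It stood at 1806, 1287 and 1441 in WT Treg and 1479, 1093, 1410 and 1135 in WT Tconv. The KO groups did not overlap, and the WT groups did. The log2 difference was 0.65 in KO (SE 0.17, limma adjusted p = 0.0226) and 0.24 in WT (limma adjusted p = 0.616). The KO call was lost without any of Treg KO 3 (limma adjusted p = 0.0715), Treg KO 4 (0.0801), Tconv KO 1 (0.0548) and Tconv KO 3 (0.0529), with quantile scaling (0.0523) and with Tconv KO 3, Tconv WT 3 and Tconv WT 1 all left out (0.0506).

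Atp5d (chromosome 10, 80138632 to 80145818, plus strand) stood at 2363, 2213, 2672 and 2734 in KO Treg and 1133, 1994, 1310, 1958 and 1531 in KO Tconv. It stood at 2187, 1947 and 2098 in WT Treg and 1255, 1604, 1380 and 2034 in WT Tconv. KO Treg lay above KO Tconv in every library, and in WT only Tconv WT 4 reached into the Treg range. The log2 difference was 0.68 in KO (SE 0.19, limma adjusted p = 0.0304) and 0.43 in WT (limma adjusted p = 0.333). The KO call was lost without any of Treg KO 1 (limma adjusted p = 0.0565), Treg KO 3 (0.0943), Treg KO 4 (0.0959), Tconv KO 1 (0.0914), Tconv KO 3 (0.0671) and Tconv KO 5 (0.0609). It was also lost with quantile scaling (0.11), with voom (0.0735) and with Tconv KO 3, Tconv WT 3 and Tconv WT 1 all left out (0.059). An exon of Atp5d overlaps the coding gene Cbarp, and the library protocol does not mark strand, so its reads are uncertain.

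**Figure D2:**
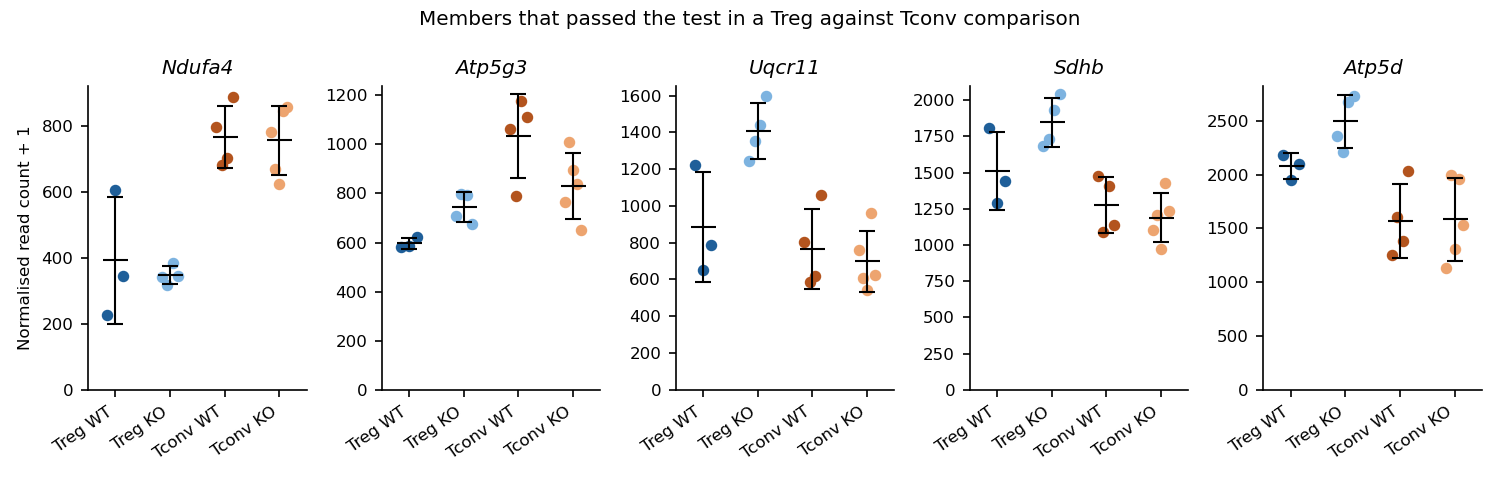
Normalised read count plus 1 (vertical axis) of the 5 members that passed in a Treg against Tconv comparison, with 1 point per library, by group, and the group mean. All 7 Treg libraries lie below all 9 Tconv libraries for Ndufa4 (226 to 605 and 319 to 385 against 683 to 887 and 625 to 859), and the 4 KO Treg libraries lie above the KO Tconv libraries for Uqcr11, Sdhb and Atp5d.

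Of the single libraries, leaving out Treg KO 2 moved the KO count furthest. Without it 8 members passed, with 965 of all genes against 975 when it was kept: Atp5d, Cox6b1, Ndufa4, Ndufa7, Ndufb7, Ndufb9, Sdhb and Uqcr11. Leaving out Treg KO 3, Treg KO 4, Tconv KO 1 or Tconv KO 3 left 2, Ndufa4 and Uqcr11, with 651, 690, 776 and 986 of all genes in that order. Treg KO 2 had the lowest summed member level of the 16 libraries (65550, against a KO Treg mean of 86260 ± 14100), 4.77 M reads and reads for the most genes (16041). The part of depth in this was not tested. Ndufa7, an accessory subunit of the matrix arm of complex I, stood at 1162, 872, 1360 and 1251 in KO Treg and 784, 709, 857, 812 and 650 in KO Tconv (log2 difference 0.59, SE 0.18, limma adjusted p = 0.0592). Its KO groups did not overlap, and it was chosen for mention after its values were seen.

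By complex, the differences between Treg and Tconv were centred near 0. In WT the median log2 difference was −0.03 for complex I, 0.01 for complex II, −0.28 for complex III, −0.01 for complex IV and −0.14 for ATP synthase. In KO the medians were 0.05, 0.35, 0.02, 0.04 and −0.00 in that order. Complex I had 37 members tested and 0 that passed in either genotype, with differences from −0.57 (Ndufb4) to 0.48 (Ndufc2) in WT and from −0.63 (Ndufa5) to 0.76 (Ndufs5) in KO. In complex II all 4 subunits had positive differences in KO, of which Sdhb passed, and in the voom fit 2 of the 4 were positive. Complex I assembly factors ranged most widely, from −2.43 (Ndufaf6) to 1.45 (Ndufaf1) in WT, and 0 of 8 passed in either genotype. Ndufaf6, needed for complex I assembly, stood at 29.3, 2.74 and 1 in WT Treg and 6.17, 29.4, 79.5 and 65.2 in WT Tconv. It stood at 1, 59.4, 44.9 and 8.78 in KO Treg and 72.8, 58.7, 150, 37.7 and 27.7 in KO Tconv. Both pairs of groups overlap, and its difference was −2.43 in WT (SE 1.20, limma adjusted p = 0.323) and −1.96 in KO (SE 1.05, limma adjusted p = 0.34). Complex IV assembly factors had 0 of 9 that passed in either genotype. Among them Cox17 stood at 651 ± 60.3 in WT Treg, 668 ± 231 in KO Treg, 664 ± 129 in WT Tconv and 635 ± 91.4 in KO Tconv (SD, n = 3, 4, 4 and 5), with a log2 difference of −0.01 in WT and 0.01 in KO.

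**Figure D3:**
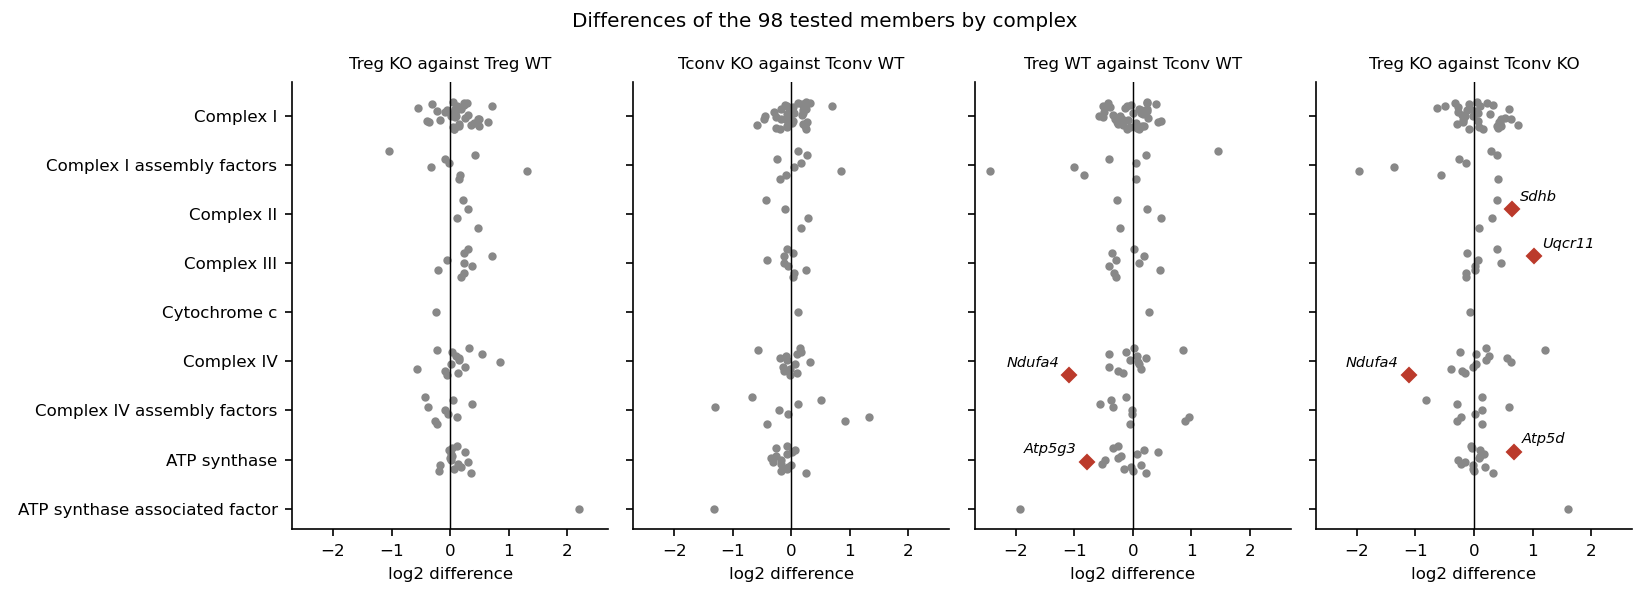
Log2 difference (horizontal axis) of each of the 98 members tested, by complex on the vertical axis, in 4 comparisons, with red diamonds for members that passed and grey circles for the rest. Most points lie close to 0, the widest ranges are among assembly factors and Atp5s, and Ndufa4 is marked on the left in both comparisons of Treg with Tconv (−1.08 and −1.11).

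Levels were also summed over the subunits of each complex. Complex I summed to 22340 ± 1520 in WT Treg, 24860 ± 4790 in KO Treg, 22330 ± 1340 in WT Tconv and 22270 ± 2270 in KO Tconv (SD, n = 3, 4, 4 and 5 here and below). Complex III summed to 9351 ± 924 in WT Treg, 11000 ± 1340 in KO Treg, 9944 ± 1080 in WT Tconv and 9723 ± 1330 in KO Tconv. Complex IV summed to 15500 ± 950 in WT Treg, 17760 ± 3960 in KO Treg, 16710 ± 1470 in WT Tconv and 16670 ± 1840 in KO Tconv. ATP synthase summed to 21870 ± 1760 in WT Treg, 23270 ± 3570 in KO Treg, 24250 ± 944 in WT Tconv and 22110 ± 1780 in KO Tconv. For each of these 4 sums the group ranges of KO and WT Treg overlapped, and so did those of KO Treg and KO Tconv. Complex II summed to 4685 ± 1010 in WT Treg, 5544 ± 559 in KO Treg, 4675 ± 300 in WT Tconv and 4168 ± 471 in KO Tconv. Its sums in KO Treg (5016 to 6126) lay above those in KO Tconv (3694 to 4835), while those in WT Treg and WT Tconv overlapped.

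Deletion of Hpgd in Treg was followed by 0 of 98 members that passed, where 0.0210% of all genes passed (3 genes, all higher in KO). Leaving out 1 library gave 0 genes (without the library labelled Treg WT 3) to 17 (without Treg WT 1), 1 gene without Treg KO 1, Treg KO 2 or Tconv KO 4, and 0 members in each case, and voom gave 0 of all genes. At an unadjusted p under 0.05 there were 4 members (Cox5b, Ndufb8, Sdhd and Uqcr11), against 6.22% of all genes, and voom on the reads also gave 0 members at the adjusted threshold. The 95% interval of the log2 difference lay within −1 to 1 for 70 members, against 23.6% of all genes, and the median SE of members was 0.28. In all, 69 members had a higher fitted mean in KO Treg, against 55.7% of all genes, with a median log2 difference of 0.10 against 0.08. In 5 members (Atp5d, Atp5g3, Atp5s, Ndufs7 and Uqcr11) the groups did not overlap, against 6.01% of all genes.

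The members with the smallest p in Treg, none of which passed, lay in several complexes. Uqcr11 had the smallest (log2 difference 0.71, SE 0.26, limma adjusted p = 0.741, interval 0.16 to 1.27), with the values given above. Cox5b, a zinc-binding subunit of complex IV, stood at 1161, 927 and 1000 in WT Treg and 1856, 1050, 1389 and 1837 in KO Treg (log2 difference 0.54, SE 0.22, limma adjusted p = 0.741). Ndufb8, a membrane arm subunit of complex I, stood at 756, 715 and 853 in WT Treg and 1314, 828, 1192 and 1059 in KO Treg (log2 difference 0.49, SE 0.23, limma adjusted p = 0.801). For both, only Treg KO 2 reached into the WT range. In the other direction, Cox7b of complex IV stood at 695, 828 and 717 in WT Treg and 946, 351, 339 and 576 in KO Treg (log2 difference −0.56, SE 0.30, limma adjusted p = 0.83). Ndufa5, a subunit of the matrix arm of complex I, stood at 376, 285 and 473 in WT Treg and 228, 210, 330 and 267 in KO Treg (log2 difference −0.54, SE 0.31, limma adjusted p = 0.84). Ndufa12, another matrix arm subunit, stood at 603, 620 and 476 in WT Treg and 519, 293, 567 and 493 in KO Treg (log2 difference −0.31, SE 0.30, limma adjusted p = 0.916). In each of these 3 the groups overlapped. Single libraries moved these 3 log2 differences by over 1.5 times: Cox7b stood at −0.86 without Treg KO 1 and −0.37 without Treg KO 3, Ndufa5 at −0.36 without the library labelled Treg WT 3, and Ndufa12 at −0.10 without Treg KO 2. Transcripts near-identical to those of Cox5b, Cox7b and Ndufa12 exist at other genes, and an exon of Ndufb8 overlaps Gm20538.

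In Tconv, whose own Hpgd was not the target, 0 of 98 members passed between KO and WT, and 0% of all genes did. At an unadjusted p under 0.05 there were 3 members (Cox19, Ndufb9 and Sdha), against 5.45% of all genes, and voom gave 0 at the adjusted threshold. The interval lay within −1 to 1 for 80 members, against 30.1% of all genes. The fitted mean was higher in KO for 42 members, against 51.7% of all genes, with a median of −0.05, and in the voom fit for 55 members with a median of 0.04, where all genes went from 7400 to 7787 higher.

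Among the Tconv differences with the smallest p, the higher ones were led by assembly factors of complex IV. Cox19, which acts in the intermembrane space, stood at 133, 74.1, 131 and 95.6 in WT Tconv and 176, 181, 252, 106 and 378 in KO Tconv (log2 difference 0.92, SE 0.39, limma adjusted p = 0.887). Cox18, which helps insert a core subunit into the membrane, stood at 38.2, 100, 232 and 7.75 in WT Tconv and 207, 152, 93.5, 124 and 110 in KO Tconv (log2 difference 1.32, SE 0.70, limma adjusted p = 0.931). Ndufa11 of complex I stood at 489, 559, 588 and 392 in WT Tconv and 584, 561, 504, 837 and 699 in KO Tconv (log2 difference 0.32, SE 0.23, limma adjusted p = 0.953). Each of these 3 pairs of groups overlapped, and an exon of Ndufa11 overlaps Vmac. The log2 difference of Cox18 was 2.03 without Tconv WT 3 and 0.45 without Tconv WT 4, and that of Ndufa11 was 0.20 without Tconv WT 4. Among the lower ones, Sdha stood at 2591, 2173, 2432 and 2356 in WT Tconv and 1600, 1814, 1357, 1786 and 2457 in KO Tconv (log2 difference −0.43, SE 0.18, limma adjusted p = 0.887). All but Tconv KO 5 lay below the WT values of Sdha. Ndufb9, a membrane arm subunit of complex I, stood at 789, 691, 900 and 916 in WT Tconv and 548, 653, 466, 623 and 714 in KO Tconv (log2 difference −0.46, SE 0.21, limma adjusted p = 0.898), where only Tconv KO 5 reached the WT range. Exons of Ndufb9 overlap Gm49356. Atp5b was the 1 member whose groups did not overlap, against 1.67% of all genes. It stood at 5844, 6642, 6565 and 5711 in WT Tconv and 5257, 5535, 5701, 5228 and 4165 in KO Tconv (log2 difference −0.26, SE 0.14, limma adjusted p = 0.928).

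Whether the deletion acted differently in the 2 cell types was tested as the difference of the effects, and 0 of 98 members passed, as did 0% of all genes. At an unadjusted p under 0.05 there were 6 members (Atp5g3, Atp5s, Ndufb8, Ndufb9, Sdha and Uqcr11), against 5.22% of all genes, and voom gave 0 at the adjusted threshold. The difference was above 0 for 69 members, against 53.3% of all genes, with a median of 0.19 against 0.06, and in the voom fit it was above 0 for 56 members and 7153 of all genes, against 7639 of all genes without voom. Ndufb9 had the smallest p (log2 difference 0.95, SE 0.32, limma adjusted p = 0.928, interval 0.28 to 1.61), at 854, 610 and 563 in WT Treg and 1134, 665, 1032 and 960 in KO Treg beside the Tconv values given above. Atp5s, a factor reported to bind ATP synthase, was listed at 40.3, 24.6 and 1 in WT Treg and 85.4, 60.9, 50.6 and 43.8 in KO Treg. It was listed at 48.6, 37.5, 41.3 and 69.7 in WT Tconv and 56.9, 32.9, 1, 45.7 and 14.3 in KO Tconv (difference of effects as log2 difference 3.54, SE 1.45, limma adjusted p = 0.928), where a listing at 1 is a library without reads for it. Without the library labelled Treg WT 3 that difference was 2.19. Uqcr11, given above, was the third of the upward differences. The downward differences with the smallest p were those of Cox19 (log2 difference −1.17, SE 0.59, limma adjusted p = 0.928), Uqcrfs1, the Rieske iron-sulfur protein of complex III (log2 difference −0.45, SE 0.29, limma adjusted p = 0.946), and Cox7b (log2 difference −0.54, SE 0.40, limma adjusted p = 0.954). Leaving out Treg KO 1 moved that of Cox7b to −0.84, and leaving out Treg KO 3 moved it to −0.35. The interval lay within −1 to 1 for 42 members, against 11.9% of all genes, fewer members than in the other comparisons.

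The remaining complex II subunits, cytochrome c1 and cytochrome c were followed individually. Sdha stood at 2692, 1537 and 1901 in WT Treg and 2001, 2370, 2639 and 2330 in KO Treg. Sdhc, which anchors complex II in the membrane with Sdhd, stood at 597, 372 and 907 in WT Treg and 747, 456, 790 and 590 in KO Treg, with 359, 484, 413 and 432 in WT Tconv and 407, 511, 686, 532 and 458 in KO Tconv. Sdhd stood at 574, 464 and 488 in WT Treg and 586, 565, 767 and 955 in KO Treg, with 554, 549, 588 and 672 in WT Tconv and 641, 668, 686, 630 and 690 in KO Tconv. For all 3, KO and WT Treg overlapped, and for Sdhd the log2 difference was 0.47 (interval 0.00 to 0.93, limma adjusted p = 0.802). Cyc1, cytochrome c1 of complex III, stood at 853 ± 244 in WT Treg, 1029 ± 55.0 in KO Treg, 826 ± 137 in WT Tconv and 792 ± 166 in KO Tconv (SD, n = 3, 4, 4 and 5). Cycs stood at 370 ± 156 in WT Treg, 295 ± 46.6 in KO Treg, 290 ± 73.2 in WT Tconv and 313 ± 78.7 in KO Tconv. Neither passed in any of the 5 comparisons. For Cycs the log2 difference between KO and WT Treg was −0.24, with an interval of −0.95 to 0.47.

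Several complex IV subunits and subunit c of ATP synthase exist as alternative copies, some of them typical of muscle, lung or testis. In these T cells the widely expressed copies held nearly all of the reads. Cox4i1 stood at 2229 to 4383 over the 16 libraries, while Cox4i2, a copy known from lung, had reads in 7 libraries and reached 13.4. Cox6a1 stood at 1547 to 2975, while Cox6a2, the copy of heart and skeletal muscle, had reads in 2 libraries, Tconv KO 3 (19.6) and Tconv KO 4 (4.19). Cox6b1 stood at 1048 to 2458, while Cox6b2, the testis copy, had reads in 5 libraries and reached 20.5. Cox7a2 stood at 556 to 1290, while Cox7a1, the heart and muscle copy, had reads in 7 libraries and reached 20.8. Muscle markers (5 of 5 with reads) summed to at most 90.7 in WT Treg, 63.9 in KO Treg, 38.6 in WT Tconv and 52.4 in KO Tconv, and their part in these low values was not tested. Cox6a2 and Cox6b2 were the 2 members below the filter of 10 in at least 3 libraries, with 151 and 51 reads in all, and were not tested. Cox7a2l stood at 1657 to 3311, and Cox8a at 1321 to 2504. An exon of Cox6a2 overlaps Itgad, and Cox7a2l has a near-identical transcript elsewhere. For subunit c, Atp5g1 stood at 758 to 1791, Atp5g2 at 100 to 295 and Atp5g3 at 582 to 1177. Per kb, Atp5g1 (1950) stood above Atp5g3 (1122) and Atp5g2 (381), and near-identical transcripts of other genes may share reads with Atp5g1 and Atp5g2. The transcript used for Atp5g1 has 596 bases and its longest principal transcript 4715, so this order depends on the transcript taken. Of the alternative copies, Atp5g3 and Ndufa4 passed a test, as given above. Ndufa13 is listed in 2 entries of the table, at 918 to 1694 in the first and at 1 to 20.5 in the second.

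**Figure D4:**
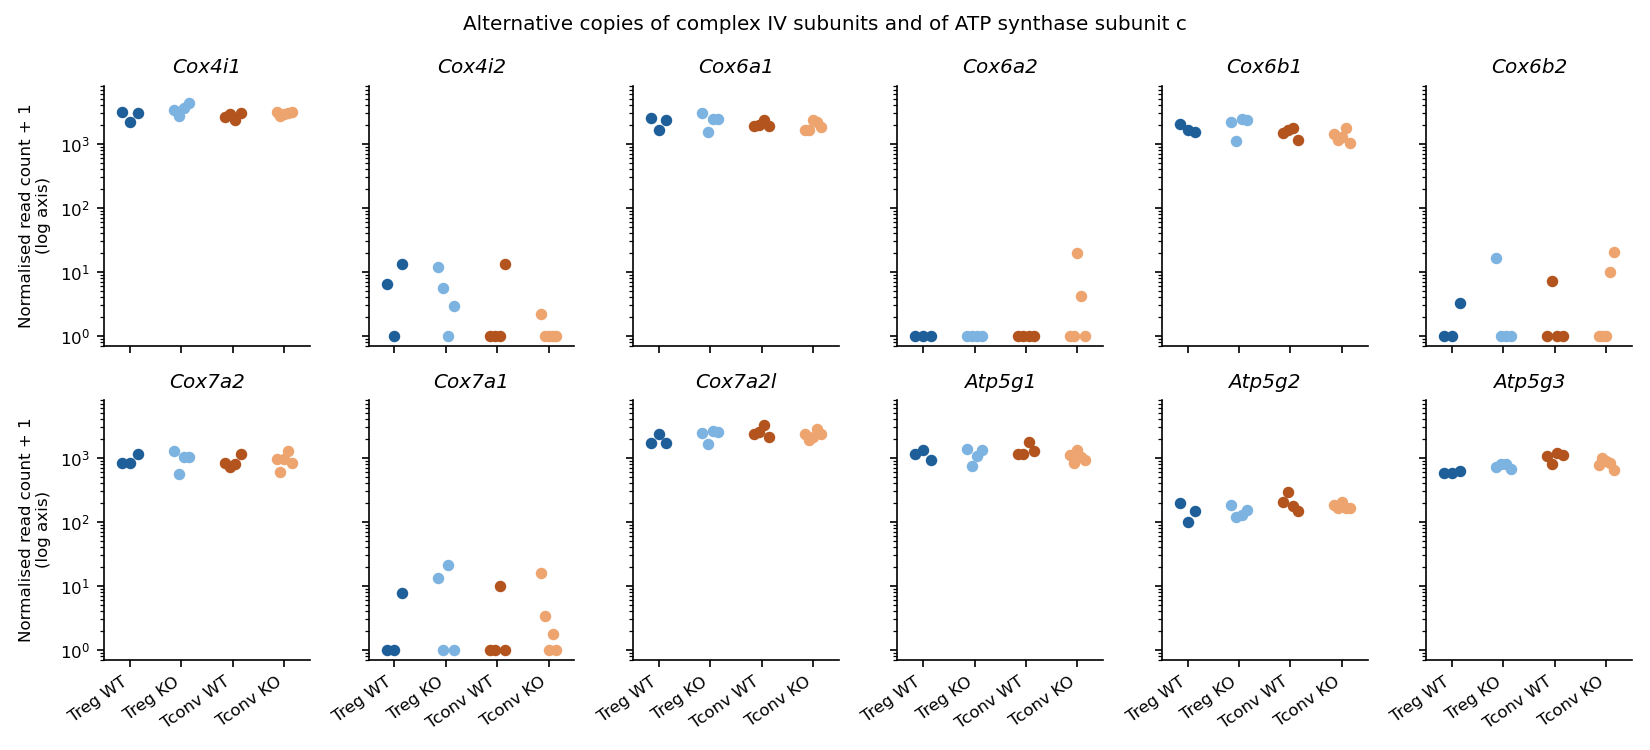
Normalised read count plus 1 (log axis) of alternative subunit copies, with 1 point per library, by group. Cox4i2, Cox6a2, Cox6b2 and Cox7a1 lie at 1 to 20.8, against 556 to 4383 for Cox4i1, Cox6a1, Cox6b1 and Cox7a2.

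The 13 subunits encoded in mitochondrial DNA, which join the nuclear ones in complexes I, III, IV and ATP synthase, all had a lower fitted mean in Treg than in Tconv in both genotypes, but 0 of 13 passed in any of the 5 comparisons. The median log2 difference was −0.42 in WT, against −0.00 for all genes, and −0.30 in KO, against 0.04. With quantile scaling the KO median was −0.59, against −0.04 for all genes. In that setting 3 of the 13 passed (COX3, CYTB and ND1), beside 1000 of all 14319 genes. They took 1.69% to 2.09% of the reads in WT Treg and 2.26% to 2.95% in WT Tconv, which did not overlap. They took 1.19% to 2.4% in KO Treg and 1.73% to 2.68% in KO Tconv, which did. The nuclear members took 0.929% to 1.01% in WT Treg and 1.06% to 1.16% in WT Tconv, which did not overlap either, and 0.894% to 1.14% in KO Treg and 0.985% to 1.26% in KO Tconv. Sums of normalised values, by contrast, overlapped in WT for both sets. The mitochondrially encoded genes summed to 124700 to 173800 in WT Treg and 163400 to 218700 in WT Tconv. The nuclear members summed to 71540 to 83850 in WT Treg and 77960 to 88770 in WT Tconv. ND2, a core subunit of complex I, had the smallest p in WT, at 3304, 2342 and 2955 in WT Treg and 5593, 3792, 4338 and 3772 in WT Tconv (log2 difference −0.60, SE 0.25, limma adjusted p = 0.207). In Tconv all 13 had a lower fitted mean in KO than in WT (median −0.38). ATP6, a membrane subunit of ATP synthase, led these at 28548, 28968, 29450 and 21770 in WT Tconv and 20598, 15189, 17274, 6555 and 24005 in KO Tconv (log2 difference −0.81, SE 0.31, limma adjusted p = 0.858). Tconv KO 4 was the lowest ATP6 library and Tconv KO 5 lay within the WT range. Between KO and WT Treg the median was −0.26. In bulk libraries of sorted cells, fewer cells of a type and less RNA per cell cannot be told apart.

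**Figure D5:**
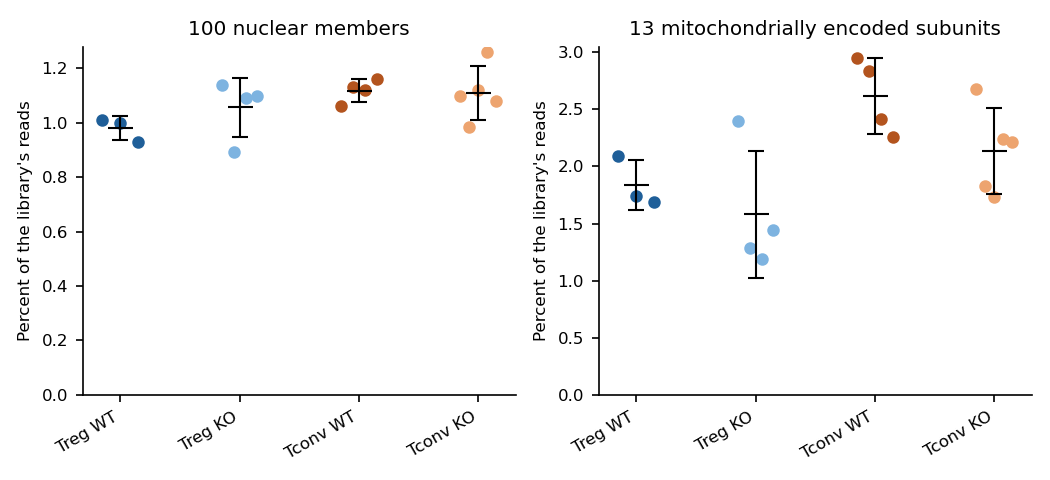
Percent of each library's reads (vertical axes, from 0) from the 13 mitochondrially encoded subunits and from the 100 nuclear members, with 1 point per library, by group. The WT Treg libraries (1.69% to 2.09%) lie below the WT Tconv libraries (2.26% to 2.95%) for the mitochondrial genes, while the KO groups overlap. Sums of normalised values, not drawn here, overlap in WT as well.

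Genes that build, regulate or feed the chain were read from 5 further lists, and 0 of their genes passed in the deletion comparisons. Of 36 other assembly and translation factors tested, 1 passed in WT (higher in Treg) and 2 in KO (1 higher, 1 lower), against 4.18% and 6.81% of all genes. Sdhaf1, which helps place iron-sulfur clusters in Sdhb, stood at 363, 299 and 892 in WT Treg and 951, 639, 858 and 726 in KO Treg. It stood at 161, 143, 213 and 111 in WT Tconv and 299, 151, 332, 274 and 194 in KO Tconv. The KO Treg values lay above those of all Tconv libraries, and Treg WT 2 lay within the KO Tconv range. Its log2 difference was 1.58 in WT (SE 0.38, limma adjusted p = 0.0191) and 1.70 in KO (SE 0.33, limma adjusted p = 0.00251). The KO call passed in all 24 other settings (adjusted p from 0.0008 to 0.013). The WT call was lost without either Tconv WT 4 (limma adjusted p = 0.0568) or the library labelled Treg WT 3 (0.149), with only the compared groups (0.111) and with voom (0.131). Higd1a, a small inner membrane protein that associates with complexes III and IV, was lower in Treg of KO mice, at 535, 265, 414 and 425 in KO Treg and 622, 603, 789, 695 and 790 in KO Tconv (log2 difference −0.80, SE 0.24, limma adjusted p = 0.0445). That call was lost in 13 of 24 settings, among them without any of Treg KO 2 (limma adjusted p = 0.147), Treg KO 3 (0.0877), Treg KO 4 (0.0803), Tconv WT 2 (0.0549), Tconv KO 1 (0.0633), Tconv KO 2 (0.054), Tconv KO 3 (0.0839), Tconv KO 4 (0.0777) and Tconv KO 5 (0.101). Sdhaf4, another complex II assembly factor, had the smallest p of this list in the difference of effects. It stood at 85.9, 7.11 and 13.1 in WT Treg and 125, 48.6, 91.6 and 96.4 in KO Treg, with 166, 109, 68.4 and 58.4 in WT Tconv and 63.0, 47.0, 46.0, 83.2 and 61.4 in KO Tconv (log2 difference 2.65, SE 0.95, limma adjusted p = 0.928).

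Of 18 regulators of mitochondrial gene expression, 1 passed in each genotype, against 4.18% of all genes in WT and 6.81% in KO. Ppargc1b, the coactivator PGC-1 beta, stood at 101, 129 and 104 in WT Treg and 4.10, 55.8, 6.03 and 1 in WT Tconv (log2 difference 3.81, SE 0.90, limma adjusted p = 0.0186). It stood at 28.7, 144, 59.1 and 152 in KO Treg and 137, 47.8, 49.0, 63.2 and 70.3 in KO Tconv (log2 difference 0.20, SE 0.79, limma adjusted p = 0.942). The WT groups did not overlap and the KO groups did, but the difference between the genotypes did not pass (log2 difference −3.60, SE 1.20, limma adjusted p = 0.928), nor did KO against WT in Tconv (log2 difference 3.11, SE 0.79, limma adjusted p = 0.656). The WT call was lost without any of Treg WT 2 (limma adjusted p = 0.0505), Tconv WT 4 (0.0545) and the library labelled Treg WT 3 (0.0629), with only the compared groups (0.118) and with Tconv KO 3, Tconv WT 3 and Tconv WT 1 all left out (0.104). Gabpb1, a subunit of the ETS factor GABP, stood at 969, 1113, 919 and 1413 in KO Treg and 542, 312, 478, 560 and 538 in KO Tconv (log2 difference 1.19, SE 0.27, limma adjusted p = 0.0082). The KO groups did not overlap, and the call passed in all 24 other settings. In WT it stood at 740, 605 and 1533 in WT Treg and 763, 510, 835 and 564 in WT Tconv (log2 difference 0.43, SE 0.31, limma adjusted p = 0.551), with overlap. Gabpa, the DNA-binding partner of Gabpb1, stood at 390, 192, 185 and 161 in KO Treg and 356, 354, 266, 330 and 359 in KO Tconv (log2 difference −0.61, SE 0.28, limma adjusted p = 0.25), which overlap at Treg KO 1.

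Among 20 enzymes of coenzyme Q synthesis and other enzymes that feed ubiquinone, 0 passed in WT and 3 in KO, all higher in Treg, against 4.18% and 6.81% of all genes. Etfb, a subunit of the electron transfer flavoprotein, stood at 1866, 1321, 2023 and 1240 in KO Treg and 689, 888, 716, 683 and 944 in KO Tconv (log2 difference 1.02, SE 0.26, limma adjusted p = 0.0181). Prodh, proline dehydrogenase, was listed at 232, 85.5, 249 and 53.5 in KO Treg and 9.51, 13.5, 1, 35.3 and 4.55 in KO Tconv (log2 difference 3.83, SE 1.05, limma adjusted p = 0.0303). Sqor, which oxidises sulfide, was listed at 21.5, 155, 447 and 259 in KO Treg and 26.5, 1, 1.13, 24.1 and 1 in KO Tconv (log2 difference 4.65, SE 1.17, limma adjusted p = 0.0181). The groups of Etfb and Prodh did not overlap, and those of Sqor overlapped at Treg KO 1. In WT the differences of Prodh (log2 difference 4.17, SE 1.20, limma adjusted p = 0.055) and Sqor (log2 difference 3.94, SE 1.33, limma adjusted p = 0.114) did not pass. The KO call of Etfb was lost without either Treg KO 1 (limma adjusted p = 0.0634) or Treg KO 3 (0.0795), and that of Sqor without either Treg KO 3 (limma adjusted p = 0.081) or Treg KO 4 (0.0659). That of Prodh was lost without any of Treg KO 1 (limma adjusted p = 0.0975), Treg KO 3 (0.109), Tconv KO 1 (0.0538), Tconv KO 3 (0.0699) and Tconv KO 5 (0.0692). Coq7, a hydroxylase of coenzyme Q synthesis, had the smallest p of the list in the difference of effects (log2 difference −2.94, SE 0.83, limma adjusted p = 0.928), at 84.1, 97.0 and 142 in WT Treg and 25.1, 44.0, 49.1 and 20.5 in KO Treg and 16.5, 29.4, 110 and 43.8 in WT Tconv and 88.6, 90.6, 133, 99.1 and 80.1 in KO Tconv. Its Treg groups did not overlap, with KO below WT.

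Of 18 enzymes of the citrate cycle or feeding it from pyruvate (Pcx, Pdha1, Pdhb and Dlat), 0 passed in any of the 5 comparisons. Between Treg and Tconv, 4.18% of all genes passed in WT and 6.81% in KO. The smallest p in WT was that of Idh3a, the catalytic subunit of the NAD-linked isocitrate dehydrogenase, at 616, 200 and 233 in WT Treg and 606, 720, 621 and 658 in WT Tconv (log2 difference −1.08, SE 0.32, limma adjusted p = 0.0605). Cs, citrate synthase, stood at 1551, 808 and 958 in WT Treg and 1437, 1425, 1481 and 1630 in KO Treg (log2 difference 0.49, SE 0.20, limma adjusted p = 0.741). Treg WT 1 lay within the KO range of Cs and the other 2 WT libraries below it. Of the uncoupling proteins, Ucp2, the form common in immune cells, stood at 5251 to 9710 over the 16 libraries, Ucp3 reached 21.3, and neither passed in any comparison.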

How the data were processed

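RNA of Treg and Tconv from VAT was measured in 16 libraries, made from 10 ng of RNA with SMART-seq2, which does not mark strand, and sequenced on an Illumina NextSeq, per the labels' protocols. The deposited table holds a signal per gene that, as its values show, is the read count divided by a size factor, plus 1, as the authors deposited it. Tools and build per the submitters' processing notes, which do not state their roles, are kallisto 0.44, DESeq2 (no version), Partek 6.6, CASAVA 1.8, R 3.3.1 and mm10. Annotation and strand setting of the counting step: not given in the sources used here. Reads were worked out from the steps between low values (100% whole within 0.1 reads, for values under 1000 reads), and floors of 3 reads cover counting error only.

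Groups came from the sample titles. Values were tested as log2(value + 1) with limma (3.58.1, run in R 4.3.3) in 1 fit over all 16 libraries that let the variance follow the mean. Tested genes had a value of at least 10 in 3 libraries or more. The 5 comparisons were KO against WT in Treg and in Tconv, the difference of those effects, and Treg against Tconv in WT and in KO. Adjusted p is limma's with Benjamini-Hochberg adjustment per comparison, 2-sided, and intervals are 95%. Fold changes on this scale understate the change of low genes. The fit was also tested on simulated data.

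Members and lists were chosen with earlier results of these data known. Named were the members that passed (where none did, the 3 smallest p in each direction), the 2 highest and the lowest per kb in each complex, alternative copies, Sdha to Sdhd, Cyc1 and Cycs, and of each list the genes that passed or some of the 3 with the smallest p. The promoters shown were chosen after the results. The transcript length per gene (the best-supported, then shortest principal transcript of GENCODE M21) was set after levels were seen. So was the filter of the fit with only the compared groups, recomputed within the libraries fitted; it left the counts of members as they were. A count test with edgeR was planned and not run; voom on the worked-out reads, chosen after seeing the data, took its place. Overlap was an exon of another gene, and near-identity 95% over 200 bases of another gene's transcript.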

Additional observations from a re-analysis of the deposited data

Results flagged for a closer look

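In 6 of the 134 group-wise sets of values checked over 46 named members, a single library stood far from the others of its group. The measure was Dixon's ratio, the gap to the nearest value over the range. It had cutoffs for groups of 4 or 5 libraries, so WT Treg with 3 was not covered. Chance flags about 1 in 20 sets of normally distributed values. A lone library with reads beside others at 1 is flagged whatever its value, as for Cox4i2, Cox6b2 and Cox7a1 in Tconv WT 3. Of the 6 flagged sets, 5 were copies with few reads. Cox4i2 stood at 13.4 in Tconv WT 4 and at 1 in the other WT Tconv libraries. Cox6a2 stood at 19.6 in Tconv KO 3, the deepest library, against 1 to 4.19 in the other KO Tconv libraries. Cox6b2 stood at 16.7 in Treg KO 1 and at 1 in the other KO Treg libraries. Cox7a1 stood at 10.1 in Tconv WT 3, against 1 in the rest of WT Tconv, and at 15.6 in Tconv KO 1, against 1 to 3.34 in the rest of KO Tconv. Ndufaf8, a complex I assembly factor, stood at 470.0 in Tconv WT 4 and at 231 to 249 in the other WT Tconv libraries.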

How the results depend on the processing

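KO against WT gave 0 members under all 24 alternatives, in Treg and in Tconv. The difference of effects also gave 0 under each alternative run. It uses all groups, so the fit with only the compared groups was not among them. In WT, Treg against Tconv gave 2 members, 3 with quantile scaling (Atp5b, lower in Treg, was added), 1 with no filter, 1 with voom, and 0 with only the compared groups, with the replicate number as a block, and with Tconv KO 3, Tconv WT 3 and Tconv WT 1 all left out. Leaving out single libraries gave 0 to 2. In KO the count was 4, 2 with quantile scaling, 2 without those 3 libraries, and 2 to 8 leaving out single libraries. The block gave 4 in KO and ended the calls of Ndufa4 in WT (0.0739), Atp5g3 in WT (0.0591), Higd1a (0.11), Sqor (0.0766) and Prodh (0.0615). Deviations of same-numbered libraries from their group means correlated little (r from −0.0222 to 0.0787). Differently numbered libraries were not compared, and libraries of 1 animal need not deviate together. Whether the numbers pair the samples therefore cannot be told from this. Over named genes, 694 values kept direction and side of the threshold, 68 kept direction but no longer passed, and none reversed. The cause was not tested, beyond fewer libraries or groups in some fits. Voom moved the median of all genes to −0.11 in both comparisons of Treg with Tconv (from −0.00 and 0.04). The planned edgeR test was not run. Depth limits low genes: 3 reads were worth up to 7.09.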
